A study of Mus musculus with 6 samples.

Results

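The Ifitm genes encode the interferon-induced transmembrane proteins, a family of small membrane proteins. The 6 members Ifitm1, Ifitm2, Ifitm3, Ifitm5, Ifitm6 and Ifitm7 were taken by gene symbol from 19938 genes with a probe set of their own, and for each the probe set was chosen by its mean level over all 6 arrays, the highest being kept. All 6 members were measured, on 9 probe sets. The family itself was put forward with the difference of Ifitm6 already known. The calls below therefore describe the members and are not independent support for the choice of the family.

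Macrophages described as Ly6C+ F4/80low were compared with those described as Ly6C- F4/80high, both sorted from CD45-positive cells of the tibialis anterior muscle. That muscle had been injured 2 days earlier with cardiotoxin, a muscle-damaging component of snake venom. Each of 3 mice gave both subsets, so there were 3 arrays per subset. All mice were of the strain B6.129P2-Lyzstm1(cre)Ifo/J, which carries Cre recombinase at the lysozyme locus of myeloid cells, so both groups carry the same allele and there is no group without Cre. Age and sex were not given, and both subsets come from the same injured muscle, with no uninjured group. All 8 macrophage markers examined (Ptprc, Itgam, Csf1r, Cd68, Adgre1, Lyz2, Mertk and Cd14) lay above background on every array. Lyz2 is a lysozyme gene, and whether the Cre allele alters its level was not tested. The differences of the 8 markers went both ways, with Mertk (1.57), Adgre1 (0.73) and Cd68 (0.31) higher and Ptprc (-0.64), Cd14 (-0.42) and Itgam (-0.23) lower in the Ly6C- F4/80high cells on the log2 scale. Across probe sets the correlation was 0.990 to 0.993 between arrays of a subset and 0.979 to 0.982 between arrays of the 2 subsets. Probe sets are not independent replicates. Arrays have no read depth, and their number limits the precision of every value. In bulk samples of sorted cells, fewer cells of a type and less RNA per cell cannot be told apart.

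Ifitm proteins sit in the plasma membrane and in endosomal and lysosomal membranes through the CD225 domain, and they are known for blocking the fusion of enveloped viruses with those membranes. Several of them are induced when interferons bind their receptors and the JAK kinases activate transcription factors, STAT2 with IRF9 among them, that bind the interferon-stimulated response element in promoters. Ifitm5 is the exception in function, since it is known from bone-forming osteoblasts. Macrophages and monocytes express several members, and immune cells can hold these proteins without a current interferon signal.

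Ifitm5, Ifitm2, Ifitm1, Ifitm3 and Ifitm6 lie next to each other in this order on mouse chromosome 7, with 1 pseudogene and 1 long non-coding RNA between Ifitm1 and Ifitm3, in the RefSeq gene table of GRCm38.p6, while Ifitm7 lies on chromosome 16. The start-site sequences of 4 members are shown because the expression data below separate Ifitm6 and Ifitm1, with differences of at least 2-fold, from Ifitm2 and Ifitm3, with smaller ones. They are RefSeq sequences of GRCm38.p6, 5′ to 3′ on the strand of the gene, from base -70 to base 30 counted from the annotated start as base 1. Capitals mark matches to GAAANNGAAA, a core of the interferon-stimulated response element, or to TTCNNNGAA, a core of the gamma-activated site. They stand for chr7:140968006-140968105 (plus strand, Ifitm1), chr7:140955932-140956031 (minus strand, Ifitm2), chr7:141010715-141010814 (minus strand, Ifitm3) and chr7:141016863-141016962 (minus strand, Ifitm6).
Ifitm1: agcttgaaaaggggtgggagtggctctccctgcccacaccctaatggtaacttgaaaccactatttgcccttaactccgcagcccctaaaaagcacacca
Ifitm2: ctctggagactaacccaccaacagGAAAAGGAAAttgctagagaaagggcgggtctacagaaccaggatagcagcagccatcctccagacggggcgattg
Ifitm3: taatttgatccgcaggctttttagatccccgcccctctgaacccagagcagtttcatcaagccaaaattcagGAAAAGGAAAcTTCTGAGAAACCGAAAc
Ifitm6: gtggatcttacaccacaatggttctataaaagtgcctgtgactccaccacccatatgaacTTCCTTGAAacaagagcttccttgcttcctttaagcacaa

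GAAANNGAAA was searched on both strands of the 300 bases around each start, 250 before and 50 after it. It was present in 2 of the 6 members, Ifitm2 and Ifitm3, and in 3.44% of all 32851 promoter sequences. Ifitm2 held GAAAAGGAAA from base -46 to -37. Ifitm3 held the same letters from base 3 to 12 and GAAACCGAAA from base 20 to 29. The longest run shared by the windows of these 2 members, of 13 bases, was caggaaaaggaaa, which occurred in 4 promoter sequences in all. TTCNNNGAA was present in Ifitm3, from base 14 to 22 and overlapping GAAACCGAAA, and in Ifitm6, from base -10 to -2, and in 8.30% of all promoter sequences. GAGGAAGT, a binding core of the myeloid factor PU.1, was in 0 of the 6 members and in 3.20% of all. A match describes the letters of this window and is not evidence of a bound factor. The windows of Ifitm1, Ifitm5 and Ifitm7 held no match to the 3 motifs. Of these, Ifitm5 had a called difference below 2-fold, as had Ifitm2 and Ifitm3. Whether matches go with the size of a difference was not tested.

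The deposited values are on a log2 scale after RMA processing by the authors, and levels of different probe sets are not compared with each other. Differences are given as log2 values in which a negative number means a lower level in the Ly6C- F4/80high cells, with the standard error (SE) and a Benjamini-Hochberg adjusted p from limma over all genes, and a gene was called at an adjusted p under 0.05. Background was taken as a level of 5.44, the 95th percentile of the mean levels of 1194 olfactory and vomeronasal receptor genes. These receptor genes leaned towards lower values themselves, with a median difference of -0.16, 16.2% called lower and 0.419% higher in the Ly6C- F4/80high cells, so a small negative difference near background is not set apart from theirs. Of the 6 members, 5 were called lower and 0 higher in the Ly6C- F4/80high cells, where 14.3% of all genes were called lower and 19.5% higher. With the arrays shifted to a common median, 8.71% of all genes were called lower and 24.0% higher, and the count of 5 members was the same. The same 5 members had all Ly6C- F4/80high arrays below all Ly6C+ F4/80low arrays, as had 23.6% of all genes. A called decrease of at least 2-fold was found for 2 members and for 1.02% of all genes. The median difference of the members was -0.66, beside -0.06 over all genes.

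Ifitm6, a member found in mice whose function is little described, showed by far the largest difference of the family. Its level was 10.9, 10.7 and 10.7 in the Ly6C+ F4/80low cells of mice 1, 2 and 3. In the Ly6C- F4/80high cells it was 6.16, 5.79 and 5.61 in the same mice. The groups did not overlap, and the 3 Ly6C- F4/80high arrays lay only 0.17 to 0.72 above background, with mouse 1 the highest of them. The means were 5.85 ± 0.28 (SD, n = 3) and 10.8 ± 0.08 (SD, n = 3), a difference of -4.91 (SE 0.13, limma adjusted p = 2.18e-08) or 30.1-fold. By mouse, in the order 1, 2 and 3, it was -4.70, -4.95 and -5.09. Only 3 of the 19938 genes had a more negative difference. RMA compresses signals near background, so the lower level and with it the fold are less certain than the standard error shows.

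Ifitm1, which acts mainly at the plasma membrane, was also strongly lower in the Ly6C- F4/80high cells. Its level was 8.40, 8.70 and 8.70 in the Ly6C+ F4/80low cells of mice 1, 2 and 3 and 6.97, 6.72 and 6.69 in the Ly6C- F4/80high cells. The groups did not overlap, and mouse 1 had both the lowest of the Ly6C+ F4/80low arrays and the highest of the Ly6C- F4/80high arrays. The difference was -1.80 (SE 0.11, limma adjusted p = 2.36e-06), or 3.49-fold, with means of 6.79 ± 0.15 (SD, n = 3) and 8.60 ± 0.18 (SD, n = 3). In mouse 1 the difference was -1.43, against -1.98 in mouse 2 and -2.01 in mouse 3. The other probe set of Ifitm1, of lower level, gave -1.59 (SE 0.13, limma adjusted p = 0.000637 over all probe sets), or 3.02-fold.

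Ifitm3, the member best known for restricting viruses in late endosomes and lysosomes, had a smaller difference. Its level was 12.5, 12.4 and 12.3 in the Ly6C+ F4/80low cells of mice 1, 2 and 3 and 11.8, 11.8 and 11.7 in the Ly6C- F4/80high cells. Both subsets were thus far above background, by at least 6.29, and the groups did not overlap. The difference was -0.63 (SE 0.08, limma adjusted p = 0.000247), or 1.55-fold, with -0.71, -0.64 and -0.56 in mice 1, 2 and 3.

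Ifitm2, a close relative of Ifitm3 that is likewise found in endosomal membranes, differed by a similar amount. Its level was 11.8, 11.7 and 11.6 in the Ly6C+ F4/80low cells of mice 1, 2 and 3, against 11.2 in each of the 3 Ly6C- F4/80high arrays. The groups did not overlap, and every array was at least 5.73 above background. The difference was -0.52 (SE 0.08, limma adjusted p = 0.000609), or 1.43-fold, with a 95% interval from -0.69 to -0.34. The interval of Ifitm3, from -0.82 to -0.45, overlaps it, and the difference between these 2 members was not tested. The other 2 probe sets annotated to Ifitm2 gave -0.54 (SE 0.08) and -0.64 (SE 0.07), with limma adjusted p-values of 0.00521 and 0.00136 over all probe sets. Ifitm1, Ifitm2 and Ifitm3 are related in sequence, so their values are uncertain as far as a probe set of 1 member can read transcripts of another, which was not tested.

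Ifitm5, the osteoblast member, was weakly measured and nonetheless lower in the Ly6C- F4/80high cells. Its level was 6.98, 6.91 and 6.92 in the Ly6C+ F4/80low cells of mice 1, 2 and 3 and 6.05, 6.38 and 6.30 in the Ly6C- F4/80high cells. The groups did not overlap, and the Ly6C- F4/80high array of mouse 1 was the lowest. The difference was -0.69 (SE 0.09, limma adjusted p = 0.000362), or 1.61-fold. Among 1439 genes whose mean level lay within 0.25 of that of Ifitm5, the median difference was 0.05, 15.6% were called lower and 3.68% had a more negative difference. The osteoblast markers Ibsp, Sp7 and Dmp1 were under background on all 6 arrays.

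Ifitm7, the member on chromosome 16, showed no called difference. Its level was 5.82, 5.72 and 5.80 in the Ly6C+ F4/80low cells of mice 1, 2 and 3 and 5.54, 5.75 and 5.76 in the Ly6C- F4/80high cells. The groups overlapped, and every array lay within 0.38 of background. The difference was -0.10 (SE 0.09, limma adjusted p = 0.406), with a 95% interval from -0.29 to 0.10. Among 2127 genes of like level the median difference was -0.12. The interval leaves room for a decrease of up to 0.29, and at this level differences are compressed.

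**Figure D1:**
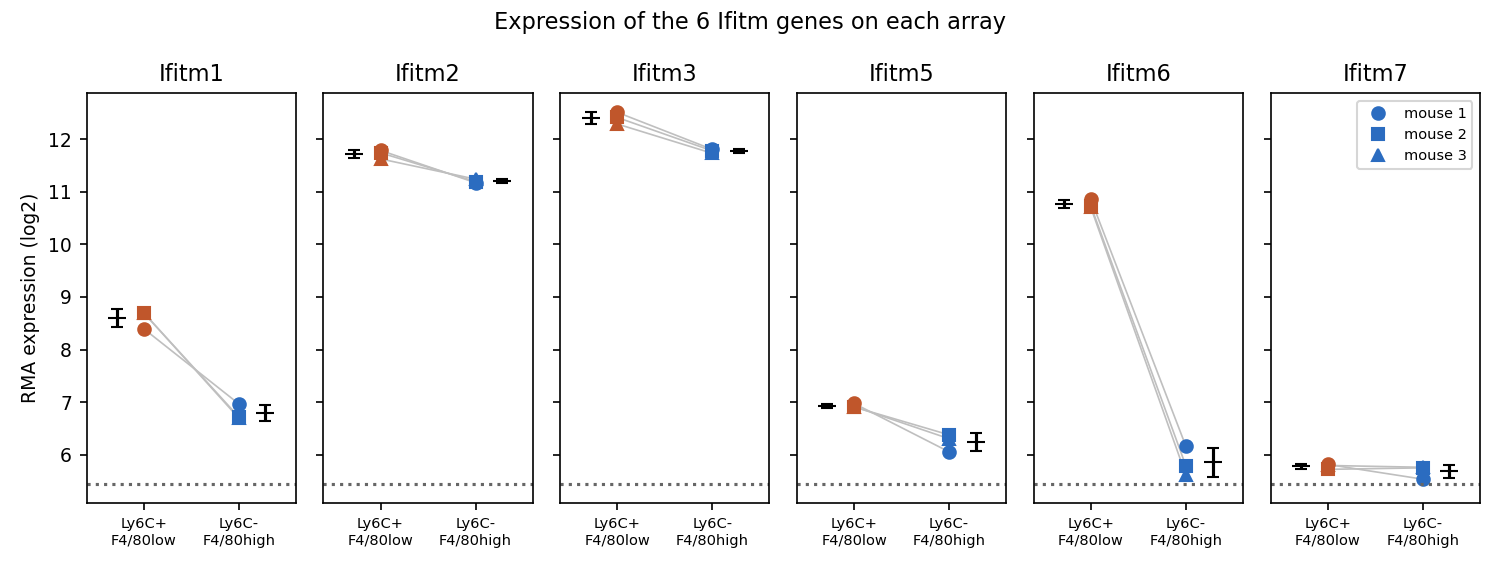
RMA expression on the log2 scale (vertical axis) of each Ifitm gene on the 6 arrays, with Ly6C+ F4/80low cells in orange and Ly6C- F4/80high cells in blue, marker shapes for the mice, grey lines joining the arrays of a mouse, black bars for mean ± SD (n = 3) and a dotted line at the background of 5.44. Ifitm6 goes from 10.8 to 5.85, close to background, whereas Ifitm3 goes from 12.4 to 11.8 and Ifitm7 stays near background in both subsets; levels are not compared between panels.

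The called members thus fell into 3 sizes of difference, with Ifitm6 30.1-fold, Ifitm1 3.49-fold and Ifitm2, Ifitm3 and Ifitm5 1.43-fold to 1.61-fold lower. Ifitm7 gave no call. In each of the 3 mice the difference of Ifitm6 was more negative than that of Ifitm1, and that of Ifitm1 more negative than those of Ifitm2, Ifitm3 and Ifitm5. The order of the last 3 changed between mice. With 3 arrays against 3, an exact two-sided permutation test of a single gene cannot go below p = 0.1, so the calls rest on limma's pooling of the spread over all genes.

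**Figure D2:**
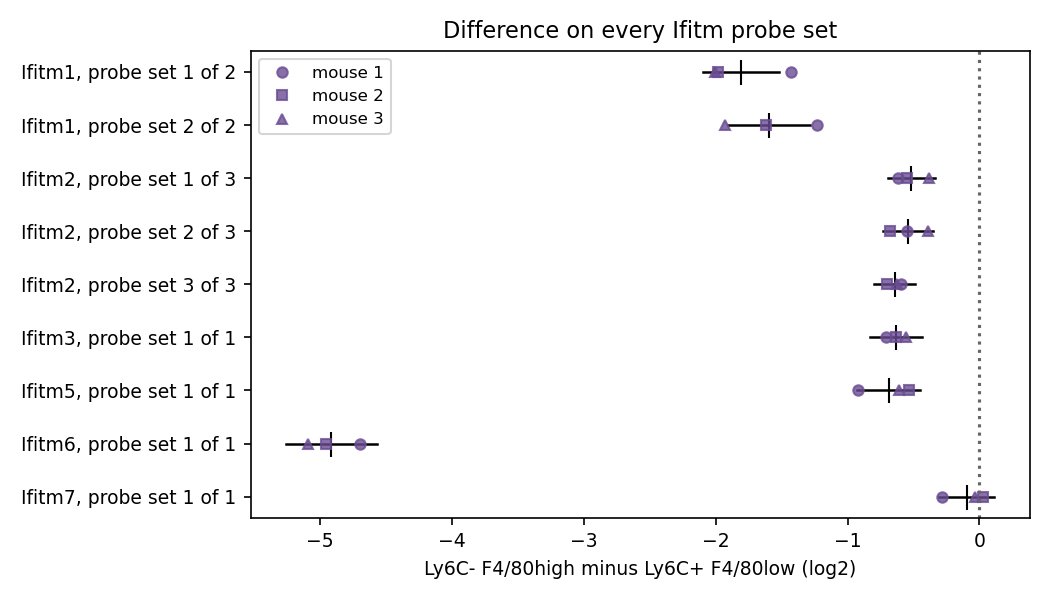
Difference between the subsets on the log2 scale (horizontal axis) for each of the 9 Ifitm probe sets, numbered by level within a gene, with a black tick for the mean, a line for the limma 95% interval and a marker for each mouse. The 3 probe sets of Ifitm2 lie between -0.64 and -0.52, the 2 of Ifitm1 at -1.80 and -1.59, and Ifitm6 at -4.91; mouse 1 has the smallest decrease of Ifitm1 and Ifitm6.

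**Figure D3:**
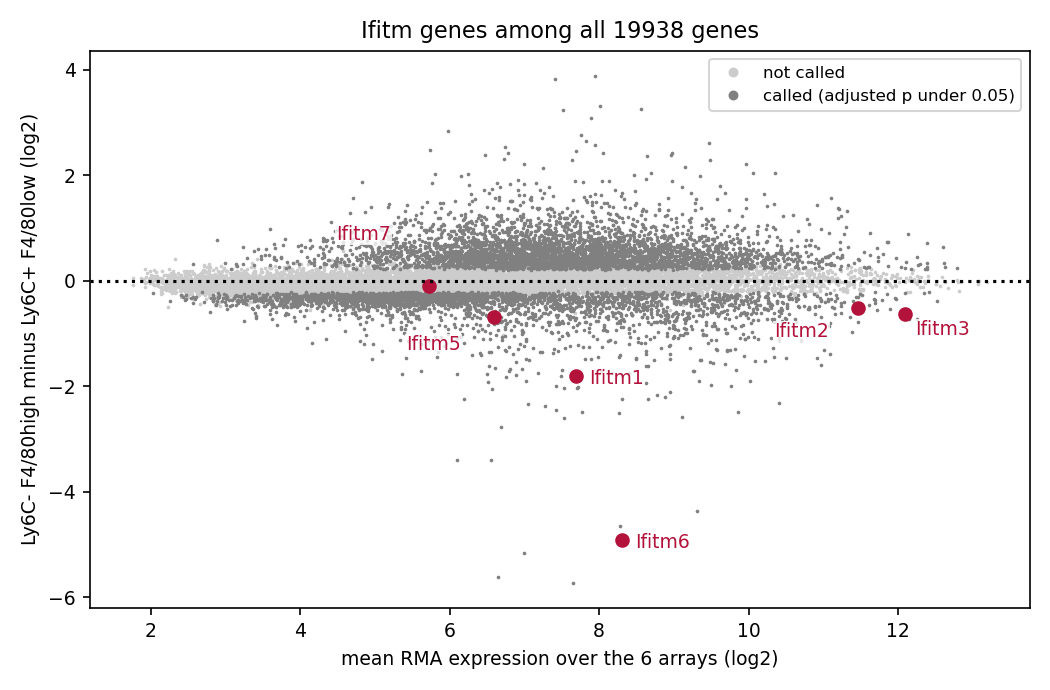
Mean expression over the 6 arrays (horizontal axis, log2) against the difference between the subsets (vertical axis, log2) for all 19938 genes, dark grey where called and light grey where not, with the 6 Ifitm genes in red. Ifitm6 lies at the lower edge of the cloud at -4.91, Ifitm1 at -1.80 is lower than most genes, and Ifitm7 lies inside the cloud.

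Most genes next to the cluster gave no call, as did most genes on the arrays, where 14.3% were called lower and 19.5% higher. Of the 10 nearest measured genes on each side of the cluster, 20 in all, 1 was called lower and 2 higher, while 17 gave no call, and the median difference was -0.11. The adjoining Pgghg, a lysosomal-type sugar hydrolase, differed by -0.09 (SE 0.08, limma adjusted p = 0.423). B4galnt4, a glycosyltransferase gene on the other side, was under background on all 6 arrays, so no difference is given for it, and 4 of the 20 neighbours lay under background in both subset means. The called neighbours were Psmd13, a proteasome subunit, at 0.60 (SE 0.09), Ptdss2, a phosphatidylserine synthase, at 0.59 (SE 0.11), and the desmosome gene Pkp3 at -0.40 (SE 0.08). Without mouse 3, 0 neighbours were called lower (Pkp3 limma adjusted p = 0.0508), and without mouse 2 or without its Ly6C- F4/80high array 4 were.

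**Figure D4:**
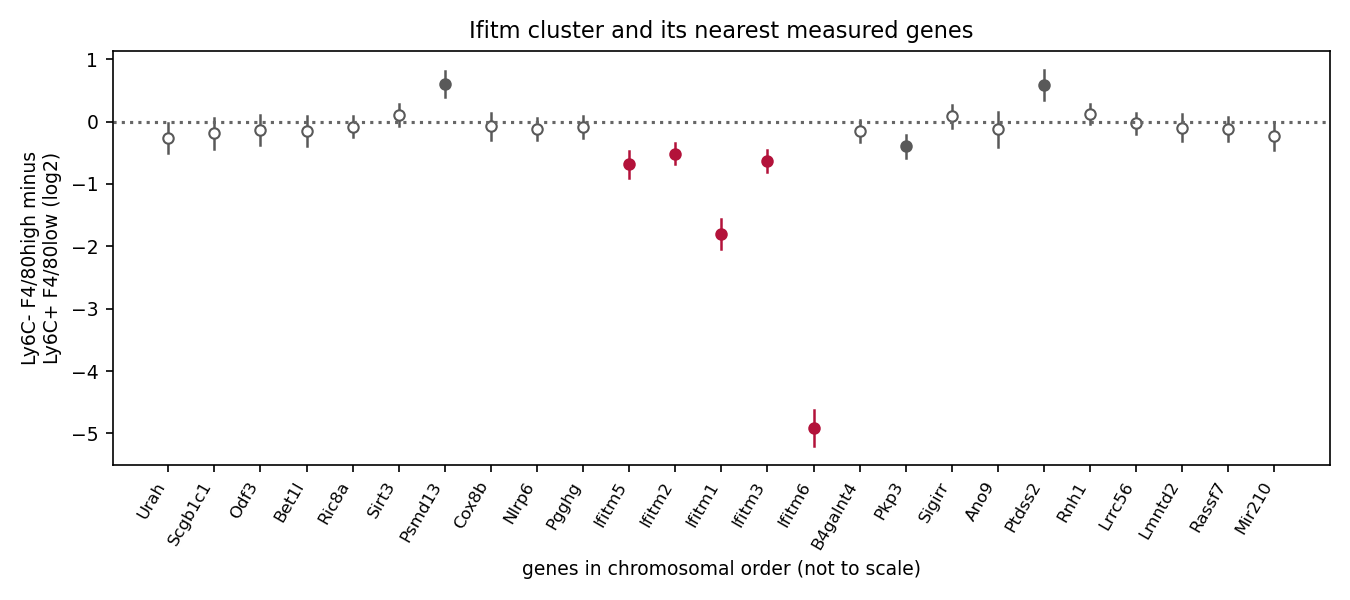
Difference between the subsets on the log2 scale (vertical axis) for the Ifitm cluster in red and its 10 nearest measured genes on each side in grey, in chromosomal order and not to scale, with limma 95% intervals and filled points for called genes. All 5 clustered Ifitm genes lie below 0, between -4.91 and -0.52, while 17 of the 20 neighbours were not called, 4 of the 20 being under background in both subset means. Of all genes, 14.3% were called lower and 19.5% higher, so most were not called either.

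Other genes with a CD225 domain gave no call. Of 9 listed, 6 were measured: Ifitm10, Prrt1, Syndig1, Syndig1l, Tmem91 and Trarg1, the last known from fat cells and several of the others from synapses. Their differences ranged from -0.23 for Trarg1 to -0.09 for Ifitm10, with a median of -0.16, and 0 were called by limma in either direction. Only 14.3% of all genes were called lower and 19.5% higher. The receptor genes behind the background had the same median of -0.16. Syndig1 and Trarg1 had Ly6C- F4/80high means of 5.34, under background. The lack of calls therefore says little about these relatives. Leaving out mouse 2 or its Ly6C- F4/80high array brought 2 calls each, among them Trarg1 both times.

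Within the interferon pathway, transcription factors and feedback inhibitors made up most of the lower genes. Ifnar1 and Ifnar2, the chains of the type I interferon receptor, differed by -0.02 (SE 0.08, limma adjusted p = 0.898) and -0.05 (SE 0.07, limma adjusted p = 0.581). Of the interferon gamma receptor chains, Ifngr1 was lower by -0.62 (SE 0.09, limma adjusted p = 0.000447), while Ifngr2 gave -0.16 (SE 0.07, limma adjusted p = 0.109). Stat2 and Irf9, which act together at the response element, differed by -0.89 (SE 0.09) and -0.78 (SE 0.12), and Irf7, an amplifier of type I interferon production, by -1.29 (SE 0.08). In all, 10 of 22 measured genes of the list of interferon receptors, kinases, factors and feedback inhibitors were lower, 1 was higher and 11 were uncalled. Their median was -0.19, and of all genes 14.3% were called lower and 19.5% higher. The higher gene was Irf8, a macrophage lineage factor, at 0.29 (SE 0.09, limma adjusted p = 0.0284). Its call was lost under 9 of the alternatives, for example after cyclic loess (limma adjusted p = 0.102). Ifnb1 itself was under background on all 6 arrays.

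Other interferon-stimulated antiviral genes moved mostly in the same direction as the Ifitm genes. Of 26 measured, 21 were lower and 2 higher, while 3 gave no call, and the median was -0.79. Among all genes, 14.3% were called lower and 19.5% higher. The RNA-degrading Isg20 had the most negative difference at -1.62 (SE 0.08), followed by the synthetase gene Oas2 at -1.39 (SE 0.08) and the GTPase gene Mx1 at -1.28 (SE 0.19). The differences of Ifitm2, Ifitm3 and Ifitm5 were smaller than the list median, and those of Ifitm1 and Ifitm6 were more negative than that of any listed gene. The 2 higher genes were Bst2 and Ch25h. Bst2, or tetherin, holds budding viruses at the cell surface and differed by 0.59 (SE 0.08, limma adjusted p = 0.000314). Ch25h makes 25-hydroxycholesterol, which hinders membrane fusion, and differed by 0.61 (SE 0.14, limma adjusted p = 0.00812). It was close to background, at 5.51 and 6.13, and the difference was 0.38 without mouse 3. These lists were chosen with earlier results of these data known.

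Genes whose products modify or accompany Ifitm proteins were called in both directions. Of 11 measured, 5 were higher and 3 lower, while 3 gave no call, and the median was 0.25. Beside these counts, 19.5% of all genes were called higher and 14.3% lower. Among 1082 genes whose mean level lay within 0.25 of that of Ifitm6, 38.7% were called higher and 14.6% lower. That window was set by Ifitm6, and no such share was computed at the levels of the 11 genes. Whether the 11 genes differ from other genes of like level was not tested. With a common median 7 of the 11 were higher and 2 lower. Cd9, a tetraspanin of the plasma membrane, was higher by 1.89 (SE 0.09, limma adjusted p = 5.10e-07). Zmpste24, a membrane protease that acts with Ifitm proteins against viruses, was higher by 0.78 (SE 0.07), or by 0.41 as the mean of its probe sets, and Ap2m1, the adaptor subunit that binds the sorting signal of Ifitm3, by 0.49 (SE 0.08). Fyn, a kinase that phosphorylates that signal, was lower by -1.39 (SE 0.10, limma adjusted p = 7.57e-06). Nedd4, a ubiquitin ligase of Ifitm3, lay under background on every Ly6C- F4/80high array, a decrease of at least 1.22-fold (limma adjusted p = 0.00761), and lost its call without mouse 3 (limma adjusted p = 0.0584). Osbp, a sterol carrier, differed by -0.26 (SE 0.08, limma adjusted p = 0.0260) and lost its call under 9 of the alternatives. Without mouse 3, the counts were 1 lower and 3 higher, and without mouse 1 or the Ly6C- F4/80high array of mouse 3, 3 were higher.

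**Figure D5:**
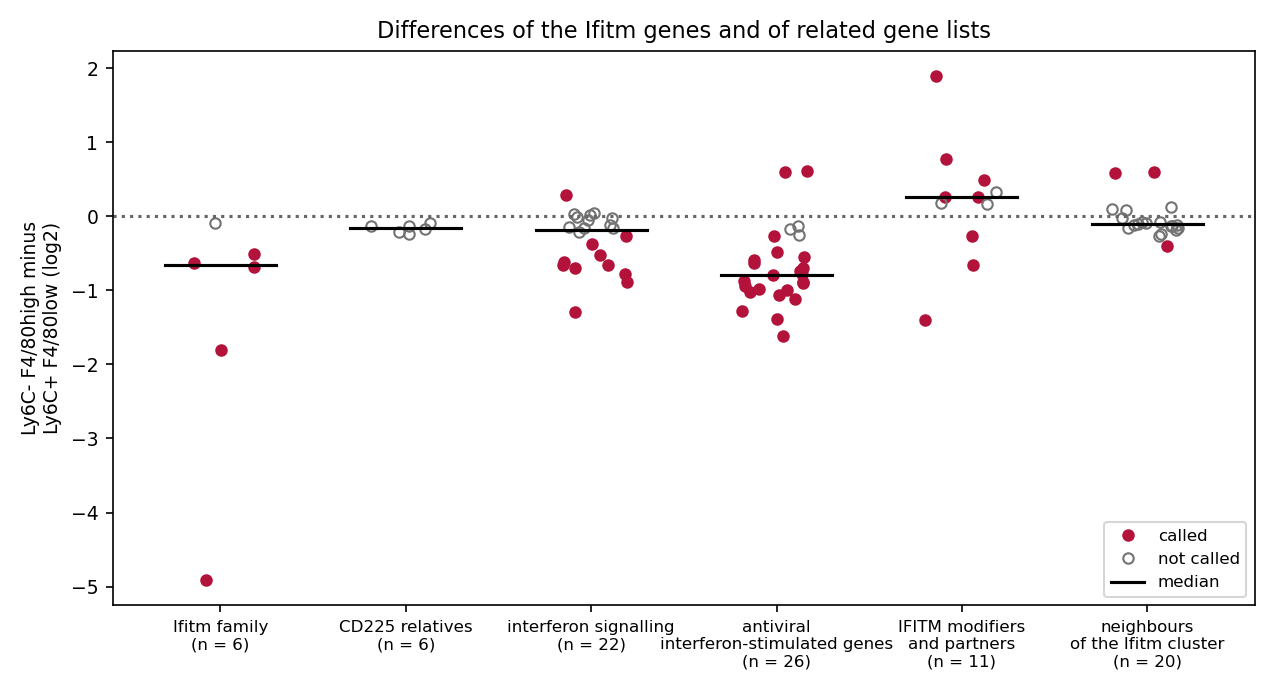
Difference between the subsets on the log2 scale (vertical axis) for the 6 Ifitm genes and 5 related gene lists (horizontal axis, points spread sideways only for visibility), filled red where called and open grey where not, with a black bar at each median. The antiviral interferon-stimulated genes centre at -0.79 and the modifiers and partners at 0.25, and no gene of any list shown lies as low as Ifitm6.

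The genes with the most similar pattern over the 6 arrays were found by the root mean square distance between log2 values centred on each gene's mean, among 17062 genes. Closest to Ifitm6 were Plac8, a gene of blood monocytes, at a distance of 0.16, Vcan, the matrix proteoglycan versican, at 0.34, and the protease inhibitor Serpinb10 at 0.40. Plac8 was 10.7, 10.7 and 10.4 in the Ly6C+ F4/80low cells of mice 1, 2 and 3 and 6.22, 5.95 and 5.70 in the Ly6C- F4/80high cells. As for Ifitm6, the Ly6C- F4/80high array of mouse 1 was the highest and that of mouse 3 the lowest. Serpinb10 was under background on the 3 Ly6C- F4/80high arrays and at least 16.3-fold lower. Closest to Ifitm1 were the small heat shock protein gene Hspb1 at 0.06, the phospholipase gene Plcb1 at 0.09 and the clotting factor gene F5 at 0.12. Hspb1 was 8.79, 8.92 and 8.96 in the Ly6C+ F4/80low cells of mice 1, 2 and 3 and 7.32, 7.08 and 7.05 in the Ly6C- F4/80high cells, so mouse 1 again had the smallest difference. F5 was under background on the 3 Ly6C- F4/80high arrays and at least 2.92-fold lower.

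Markers of Ly6C-high monocytes and of other cells were called to different degrees and not all in the same direction. Their part in the Ifitm differences was not tested. Their counts stand beside 14.3% of all genes called lower and 19.5% called higher. Of 12 neutrophil markers, 3 were lower, 1 of them above background in a subset mean, and 0 higher (median -0.11), and 7 lay under background in both subset means. Ly6g, Mpo, Elane, Ngp, Ltf, Retnlg and Cxcr2 were under background on all 6 arrays, and the summed linear level of the list was 1051 to 1085 in the Ly6C- F4/80high and 1076 to 1134 in the Ly6C+ F4/80low arrays. All 7 measured Ly6C-high monocyte markers were lower, with a median of -2.00 and a summed level of 7446 to 7570 against 14358 to 15128. The subsets were sorted by Ly6C, so the direction of this list is not independent of the sort. It also holds Plac8 and Vcan, named above as closest to Ifitm6. Endothelial markers were lower in 4 of 5 cases, 3 of them above background in a subset mean, with a summed level of 257 to 277 against 456 to 514. Cdh5, a junction protein of vessels, differed by -1.51 (SE 0.10), whereas the receptor gene Kdr gave 0.11 (SE 0.13, limma adjusted p = 0.530). Fibroblast markers were lower in 4 of 5 cases, with a summed level of 237 to 262 against 310 to 413, and Dcn lay under background on every Ly6C- F4/80high array. Dendritic cell markers were lower in 2 of 5 cases, with 177 to 184 against 273 to 289. T cell, NK cell, eosinophil and muscle markers were lower in 1 of 4, 1 of 5, 1 of 4 and 1 of 6 cases, and mast cell and osteoblast markers in 1 of 4 and 1 of 3. The lower mast cell, osteoblast and NK cell markers, Kit, Dmp1 and Nkg7, lay under background in both subset means, where the receptor genes were also called lower at 16.2%. B cell and platelet markers were each higher in 1 of 4 cases, the latter being Pf4, which macrophages can express too.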

How the data were processed

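Total RNA (150 ng per sample) of 6 sorted samples was labelled with Affymetrix kits and put on 1 array each, per the labels' protocols. The deposited values are log2 values made by the authors with RMA, per the submitters' processing notes. The range of the values gave the log2 scale. The RMA software and settings were not stated in those notes. Of 35556 probe sets, 21789 had 1 gene symbol, 1621 several and 12146 none, and only the first were used as genes. Each of 19938 symbols kept the probe set with the highest mean. The test was limma (version 3.58.1, under R version 4.3.3), two-sided, through lmFit and eBayes, with Benjamini-Hochberg adjustment over all genes and no filter on level.

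The members and gene lists were chosen with earlier results of these data known. Rigi was matched as Ddx58. Genes were named by a rule: the members, receptor and factor genes of interferon signalling, the genes with a CD225 domain, the genes next to the cluster, up to 3 called genes per direction of each list, and the 3 most similar patterns for each member with a log2 difference of at least 1. Markers named beside the results, and Ifnb1, were chosen from their lists after their values were seen. A difference is given as a bound, from the background level, where 1 subset had all 3 arrays under it, and is not given in the text where both had.

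Both subsets came from the same animals, per the labels, which makes the arrays pairs. Deviations of paired arrays from their subset means correlated at 0.03, -0.08 and 0.09 in mice 1, 2 and 3, and since a paired test is not mentioned in the labels, the block was an alternative. On simulated data with 19938 genes, limma recovered 44% of genes raised by 0.5 on the log2 scale, 52% of those lowered by 0.5, 94% of those raised by 1 and 100% of those raised by 2, with 6 false calls, and made 0 calls when no gene was changed. Only 50 genes were changed at each size, far fewer than were called in the real data. These shares therefore do not give the recovery in the real data. Promoter sequences are from RefSeq, GRCm38.p6, and matched all 6 members. No protein sequences were used here.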

Additional observations from a re-analysis of the deposited data

How the results depend on the processing

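The 5 called Ifitm genes stayed lower and called under each of 17 alternatives: the mouse as a replicate block, quantile normalization, a common median, cyclic loess, leaving out the 50% of genes of lowest level, averaging the probe sets of a gene, testing each probe set separately, a robust prior with a trend, and leaving out each array or each mouse. With the replicate block the count of lower members was 5, as without it, and Ifitm6 differed by -4.91, and the block ended no call of a named gene. Leaving out arrays or mice gave -5.07 to -4.79 for Ifitm6, -1.99 to -1.70 for Ifitm1, -0.69 to -0.58 for Ifitm3, -0.58 to -0.47 for Ifitm2 and -0.77 to -0.57 for Ifitm5. The largest adjusted p of these 5 genes over all alternatives was 0.0123, for Ifitm2. Ifitm7, which the filter on level removed, was called under none of its 16 alternatives.

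Among the lists, 0 interferon signalling genes were higher after quantile normalization, after cyclic loess and with each probe set tested separately, and 0 to 1 when arrays or mice were left out. Of the antiviral genes 1 was higher without the 50% of lowest level, since that filter removed Ch25h, which kept its call under each of its 16 alternatives. Of the modifiers and partners 3 were higher after cyclic loess and 7 with a common median, and leaving out arrays or mice gave 3 to 5 higher and 1 to 3 lower. Of the neighbours 2 were lower after quantile normalization and after cyclic loess, and 0 to 4 when arrays or mice were left out. Of the CD225 relatives 0 to 2 were lower when arrays or mice were left out. The sign changed, with no call, for Ifnar1 and Ifnar2 with a common median (0.060 and 0.022) and, when arrays or mice were left out, for Ifnar1 (-0.079 to 0.046) and Ifitm10 (-0.16 to 0.037). Ifngr2 was called only with the robust prior (adjusted p = 0.0297). Signals near background, as for Ifitm7 and the Ly6C- F4/80high level of Ifitm6, limit what these arrays can resolve.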
